A study of Homo sapiens with 6 samples.

Results

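MHC class I molecules are the cell surface proteins that show peptides from inside a cell to CD8+ T cells. The genes described here were the 9 core genes of this route: the heavy chains HLA-B, HLA-C, HLA-E and HLA-F, the shared light chain B2M, the peptide pump subunits TAP1 and TAP2, the loading bridge TAPBP, and the transcriptional activator NLRC5. Their rows were found by Ensembl identifier and symbol, with no use of measured values. All 9 were among the 61496 features of the deposited tables, and all 9 were among the 27514 features with enough counts to be tested. RNA was measured in U251, an established human glioma cell line, by strand-specific sequencing after removal of ribosomal RNA. The 3 control libraries came from cells without the gas, and the 3 Sev libraries came from the same line after 2 h of sevoflurane (Sev), an inhaled anesthetic. The sample protocol lists doses of 1.7%, 3.4% or 5.1% without assigning one to a library, and the study's description of this comparison names the highest. A single line was used, with no genetic change and no other agent.

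In this pathway, proteasomes cut proteins into peptides, and the TAP1 and TAP2 pump carries them into the endoplasmic reticulum. There, TAPBP (tapasin) holds the pump beside a new pair of heavy chain and B2M, and the loaded complex then moves to the cell surface. NLRC5 acts with RFX, CREB and NF-Y factors at a shared promoter module, and interferon and NF-κB signals also act on these promoters. Low class I is a known route by which tumor cells escape T cells, and HLA-E is read by an inhibitory receptor of natural killer cells.

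The RefSeq promoters of 7 of the 9 genes were read, since this is where the shared factors bind. The 6 below are shown because they belong to the heavy chains and to the light chain and pump genes on which the results turn. Each is the 250 bases before the gene start in RefSeq, 5′ to 3′ on the gene's own strand, in GRCh38.p14. RefSeq starts differ from the GENCODE gene spans given below, so these stretches lie partly or, for HLA-F and TAP1, wholly inside those spans. Capitals mark letters that match one of 5 searched motifs on either strand: GAAA followed after any 2 bases by GAAA, or TTTC likewise by TTTC (interferon-stimulated response element), GAANTGAAA or TTTCANTTC (a shorter interferon response form), kappa-B, TGACGC or GCGTCA (the CREB-type X2 letters), and CCAAT or ATTGG (bound by NF-Y).
HLA-B (chr6:31357180-31357429, minus strand): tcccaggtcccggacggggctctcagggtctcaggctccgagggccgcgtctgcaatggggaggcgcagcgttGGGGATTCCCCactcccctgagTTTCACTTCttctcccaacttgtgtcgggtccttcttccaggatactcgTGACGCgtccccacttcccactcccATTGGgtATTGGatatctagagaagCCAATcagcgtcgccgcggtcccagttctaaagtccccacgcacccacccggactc
HLA-C (chr6:31272093-31272342, minus strand): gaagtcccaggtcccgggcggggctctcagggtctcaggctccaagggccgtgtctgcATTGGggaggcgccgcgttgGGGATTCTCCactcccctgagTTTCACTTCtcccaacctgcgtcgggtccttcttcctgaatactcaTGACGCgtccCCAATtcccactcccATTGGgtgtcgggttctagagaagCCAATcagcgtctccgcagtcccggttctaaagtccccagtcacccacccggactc
HLA-F (chr6:29723184-29723433, plus strand): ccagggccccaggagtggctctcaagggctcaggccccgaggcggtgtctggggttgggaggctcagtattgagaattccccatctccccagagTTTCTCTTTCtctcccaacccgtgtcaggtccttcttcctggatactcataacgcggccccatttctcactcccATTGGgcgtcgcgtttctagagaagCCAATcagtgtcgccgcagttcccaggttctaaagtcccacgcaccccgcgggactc
TAP1 (chr6:32853705-32853954, minus strand): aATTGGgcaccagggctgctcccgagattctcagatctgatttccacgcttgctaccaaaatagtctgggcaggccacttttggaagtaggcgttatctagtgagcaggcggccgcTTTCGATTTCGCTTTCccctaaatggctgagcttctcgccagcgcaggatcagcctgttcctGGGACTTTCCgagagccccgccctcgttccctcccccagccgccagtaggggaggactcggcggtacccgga
TAP2 (chr6:32838740-32838989, minus strand): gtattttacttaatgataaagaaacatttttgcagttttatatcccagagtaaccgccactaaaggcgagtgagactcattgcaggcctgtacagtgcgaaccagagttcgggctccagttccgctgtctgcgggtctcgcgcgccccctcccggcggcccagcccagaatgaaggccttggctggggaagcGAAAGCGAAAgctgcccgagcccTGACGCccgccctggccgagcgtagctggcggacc
B2M (chr15:44711267-44711516, plus strand): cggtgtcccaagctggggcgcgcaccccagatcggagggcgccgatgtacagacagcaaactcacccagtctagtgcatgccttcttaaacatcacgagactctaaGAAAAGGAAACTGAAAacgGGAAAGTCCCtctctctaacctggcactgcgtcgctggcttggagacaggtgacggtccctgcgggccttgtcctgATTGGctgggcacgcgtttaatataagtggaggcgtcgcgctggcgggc
HLA-E and NLRC5 had no entry, and TAPBP was searched but is not printed. The first listed start of TAP1 is shown. A second TAP1 start held no match.

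The HLA-B and HLA-C promoters were alike, with 89.0% of aligned positions identical, against 80.4% for HLA-B with HLA-F and 78.7% for HLA-C with HLA-F. HLA-B and HLA-C both held the shorter interferon form, kappa-B, the X2 letters and CCAAT. HLA-F held the longer interferon form and CCAAT only. The longer form was found for 5 of the 7 genes (HLA-F, B2M, TAP1, TAP2 and TAPBP), against 3.02% of all 35116 promoters of this length, and the shorter form for 2 against 1.53%. Kappa-B letters were found for 5 genes (HLA-B, HLA-C, B2M, TAP1 and TAPBP) against 5.21% of all promoters, X2 letters for 3 (HLA-B, HLA-C and TAP2) against 7.67%, and CCAAT for 5 (HLA-B, HLA-C, HLA-F, B2M and TAP1) against 32.0%. In B2M, TAP1 and TAPBP, adjacent copies of the longer interferon form overlapped each other. These are matches of letters and not measured binding.

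Library totals lay between 38624292 and 46318311 counts, and the 9 genes together took 0.0725% to 0.0906% of them. The 6 glial and glioma markers VIM, NES, GFAP, S100B, SOX2 and CD44 were expressed in all 6 libraries. S100B (log2 fold change -1.10, edgeR adjusted p = 0.00153) and SOX2 (-0.72, adjusted p = 0.000223) were lower and CD44 (0.97, adjusted p = 9.12e-05) was higher in the Sev group. MHC class II markers of antigen-presenting cells were near the floor: the 7 genes summed to 4.01 to 4.89 CPM (counts scaled to a common library size) in the control group and 2.68 to 3.94 CPM in the Sev group, with HLA-DRA at 0 counts in every library. The 10 leukocyte markers summed to 1.46 to 2.14 CPM in the control group and 6.28 to 7.86 CPM in the Sev group, where CD14 and ITGAM were called higher, while CD3E, CD2, MS4A1 and AIF1 were at 0 throughout. Of 4 endothelial markers, PECAM1 (log2 fold change 0.92, edgeR adjusted p = 0.0397) and KDR (0.52, adjusted p = 0.00699) were called higher, as was SYT1 (0.55, adjusted p = 0.00461) of 3 neuronal markers, with 0 lower in both lists (0 also at an unadjusted p under 0.05 and by DESeq2). The endothelial list summed to 38.5 to 41.4 CPM in the control group and 49.2 to 64.1 CPM in the Sev group, and the neuronal list to 16.3 to 18.2 and 22.6 to 24.9 CPM. The part of these differences in the class I results was not tested.

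After Sev, 3 of the 9 class I genes fell, HLA-B, HLA-F and TAP1, and no gene was called higher. The differences were of modest size, with means 24.4% lower for HLA-B, 26.7% lower for TAP1 and 40.3% lower for HLA-F. B2M, HLA-C, HLA-E, TAP2, TAPBP and NLRC5 did not pass the test. A gene was called by edgeR's quasi-likelihood test on counts at a Benjamini-Hochberg adjusted p under 0.05 over all tested features. By this rule 43.7% of all tested features were called, with 21.5% lower and 22.2% higher, beside 3 of 9 members (33.3%) called, all lower. With library size scaling in place of edgeR's trimmed mean (TMM) scaling, 61.5% of all calls were lower, against 49.2% here. At an unadjusted p under 0.05, 3 genes were lower and 0 higher, and DESeq2 gave the same counts. No member passed the threshold of the study, a log2 fold change beyond 1 in either direction with an unadjusted p under 0.05, which 23.3% of tested features passed. The median log2 fold change of the 9 genes was -0.053, against -0.0056 over all tested features. In these bulk libraries, fewer cells that express a gene and less of its RNA per cell cannot be told apart.

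**Figure D1:**
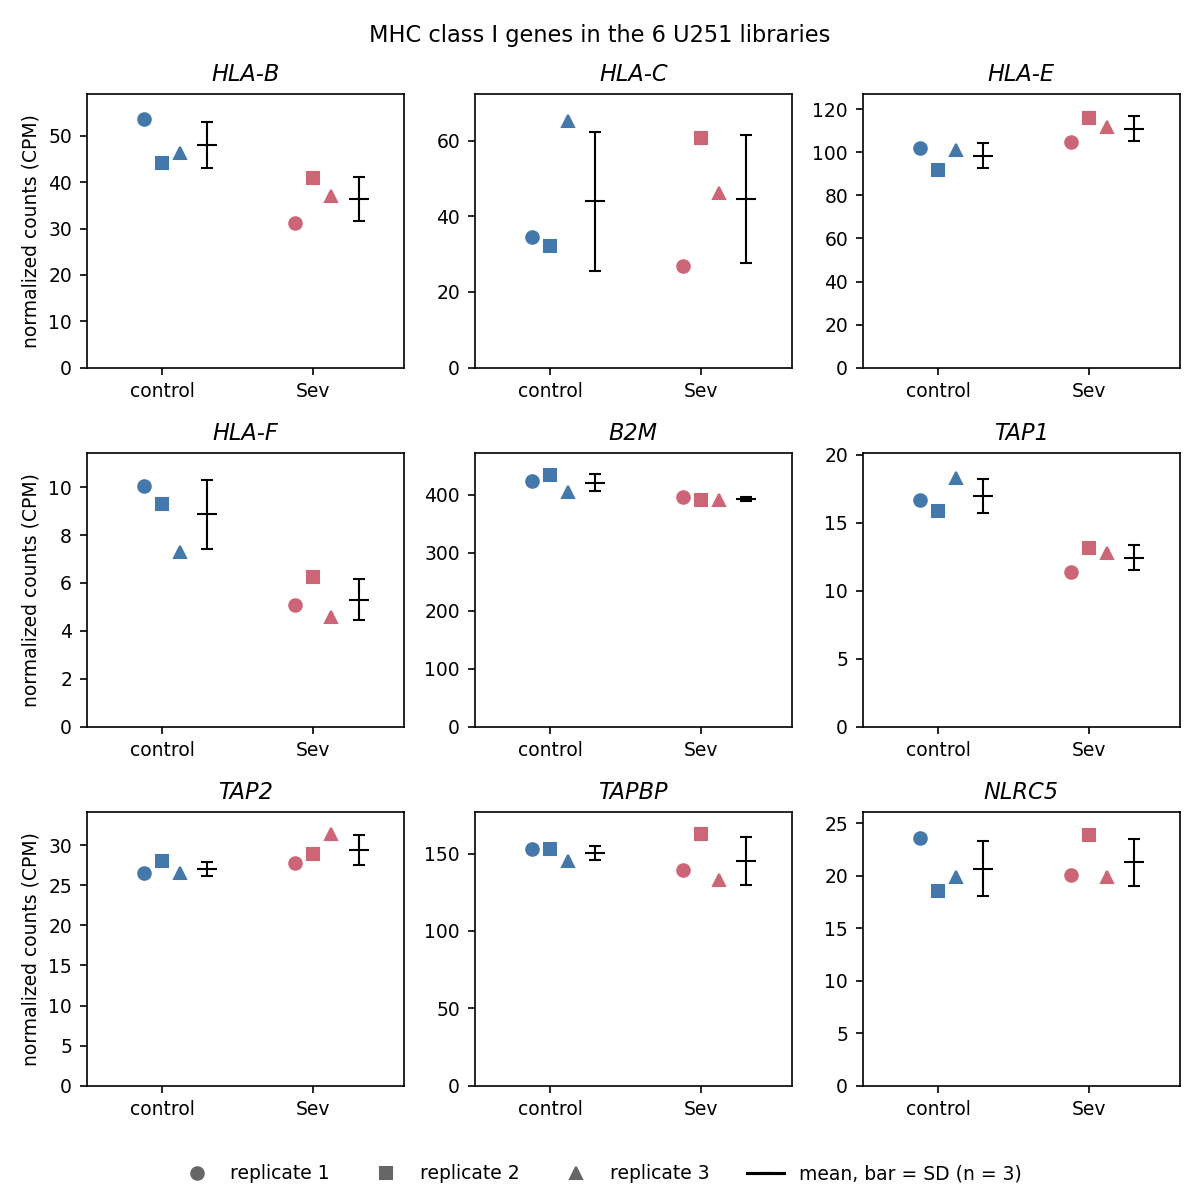
Normalized CPM of the 9 class I genes in each library, with points for single libraries, the group mean as a line and SD as the error bar (n = 3 per group). HLA-B, HLA-F, TAP1 and, by a small step, B2M are lower in all 3 Sev libraries, HLA-E is higher in all 3, and HLA-C spreads as widely within the groups as between them.

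Among the heavy chains, HLA-B, a classical presenter of peptides to CD8+ T cells, fell after Sev. Its normalized level was 53.6, 44.2 and 46.4 CPM in the control libraries and 31.3, 40.8 and 37.0 CPM in the Sev libraries. Every Sev library lay below every control library, but the highest Sev value was close to the lowest control value. The mean went from 48.1 ± 4.92 to 36.4 ± 4.81 CPM (SD, n = 3), a log2 fold change of -0.40 (SE 0.12, 95% interval -0.69 to -0.12, edgeR adjusted p = 0.0287). The call was lost when control 1, control 3, Sev 1 or Sev 3 was left out (edgeR adjusted p = 0.0916, 0.059, 0.0975 and 0.0525). It was also lost with the replicate number as a block in the fit (edgeR adjusted p = 0.0686). The gene lies at chr6:31269491-31357188 on the minus strand of GRCh38 in GENCODE 29, a span set by a long transcript that shares 35 exon bases with HLA-C.

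HLA-C, the other classical heavy chain measured here, also serves as a ligand of inhibitory receptors on natural killer cells. It was measured at 34.6, 32.2 and 65.1 CPM in the control libraries and 26.8, 60.5 and 46.2 CPM in the Sev libraries. The groups overlapped fully, and 1 library of each group, control 3 and Sev 2, stood above the others of its group. The means were 44.0 ± 18.3 and 44.5 ± 16.9 CPM (SD, n = 3). The log2 fold change was 0.018 (SE 0.40, edgeR adjusted p = 0.976), and its 95% interval of -0.97 to 1.01 allows about a doubling or a halving. This is a matter of spread and not of depth, since HLA-C had 1010 to 3160 counts per library. Without control 3, the log2 fold change was 0.41, and it was below 0 when counts were scaled by library size only or FPKM was used (-0.13 to -0.12). HLA-C lies at chr6:31268749-31272130 on the minus strand.

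HLA-F is a nonclassical heavy chain with low and tissue-restricted surface display. Its levels were 10.0, 9.29 and 7.27 CPM in the control libraries and 5.07, 6.25 and 4.57 CPM in the Sev libraries, with no overlap between the groups. The mean fell from 8.87 ± 1.43 to 5.30 ± 0.866 CPM (SD, n = 3), and the log2 fold change was -0.74 (SE 0.18, 95% interval -1.16 to -0.32, edgeR adjusted p = 0.0118). This was the lowest log2 fold change of the 9 genes, and HLA-F was the one member whose call held in all 15 alternative settings, with adjusted p from 0.00182 to 0.0457 and log2 fold change from -0.89 to -0.50. HLA-F lies at chr6:29722775-29738528 on the plus strand and shares 535 exon bases with the opposite-strand RNA HLA-F-AS1. HLA-F-AS1 itself had 7.42, 5.63 and 7.0 CPM in the control libraries and 3.13, 3.91 and 3.23 CPM in the Sev libraries. It fell with a log2 fold change of -0.96 (SE 0.18, edgeR adjusted p = 0.00299). Whether the counting used strand is not stated, so reads of these overlapping genes may not be fully separated.

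HLA-E, a nonclassical heavy chain that presents leader peptides of other class I molecules to the NKG2A receptor, was higher in every Sev library but did not pass the test. It was measured at 102, 91.8 and 101 CPM in the control libraries and 105, 116 and 112 CPM in the Sev libraries. The means were 98.4 ± 5.72 and 111 ± 5.77 CPM (SD, n = 3), a log2 fold change of 0.17 (SE 0.082, 95% interval -0.014 to 0.36, edgeR adjusted p = 0.12). HLA-E lies at chr6:30489467-30494205 on the plus strand. In FPKM, which are the authors' fragments counted per gene length and library depth, the groups overlapped, with means of 28.7 ± 2.17 and 29.2 ± 1.47 (SD, n = 3). Groups did not overlap in CPM for 4 members lower (HLA-B, HLA-F, TAP1 and B2M) and 1 higher (HLA-E), which is 5 of 9, against 28.2% of tested features lower, 28.3% higher and 56.5% in either direction.

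The 4 heavy chain members were also summed in each library. The sum was 200, 178 and 220 CPM in the control libraries and 168, 224 and 200 CPM in the Sev libraries. The groups overlapped, with means of 199 ± 21.2 and 197 ± 28.0 CPM (SD, n = 3) and a log2 fold change of -0.016 (SE 0.12, 95% interval -0.29 to 0.26, edgeR adjusted p = 0.926). The lower HLA-B and HLA-F did not appear in the sum, in which HLA-E weighs most.

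**Figure D2:**
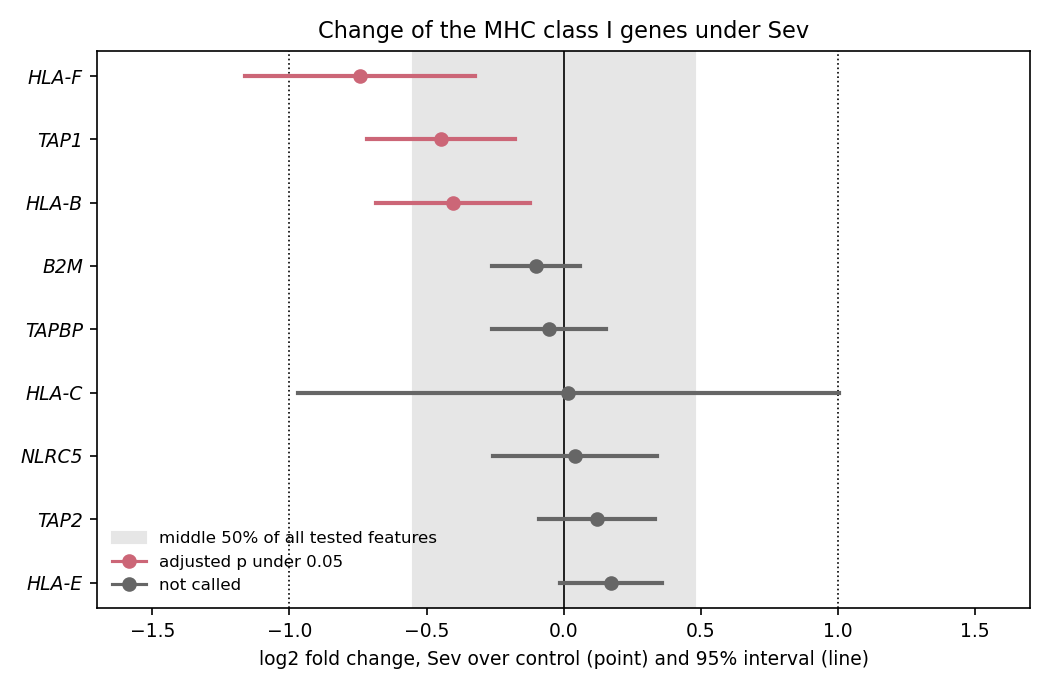
Log2 fold change of Sev over control for the 9 class I genes, with 95% intervals from the edgeR fit. HLA-F, TAP1 and HLA-B lie below 0 with intervals that exclude it, from -0.74 to -0.40, and the interval of HLA-C reaches from -0.97 to 1.01.

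B2M is the light chain that pairs with classical and nonclassical heavy chains in the endoplasmic reticulum. It was measured at 424, 434 and 405 CPM in the control libraries and 397, 392 and 390 CPM in the Sev libraries. All 3 Sev libraries were below all 3 control libraries, but the shift was small. The means were 421 ± 14.7 and 393 ± 3.33 CPM (SD, n = 3), with a log2 fold change of -0.10 (SE 0.070, 95% interval -0.26 to 0.059, edgeR adjusted p = 0.275). With scaling by library size only, the log2 fold change was -0.24 and B2M was called lower (edgeR adjusted p = 0.018), as it was on FPKM by limma (adjusted p = 0.0206 to 0.0328). B2M lies at chr15:44711487-44718877 on the plus strand, apart from the MHC region.

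The peptide pump is made of 1 TAP1 and 1 TAP2 chain and brings peptides to the loading complex. TAP1 passed the test and TAP2 did not. TAP1 was measured at 16.7, 15.9 and 18.3 CPM in the control libraries and 11.4, 13.1 and 12.8 CPM in the Sev libraries, without overlap. Its mean fell from 17.0 ± 1.25 to 12.4 ± 0.901 CPM (SD, n = 3), with a log2 fold change of -0.45 (SE 0.12, 95% interval -0.72 to -0.18, edgeR adjusted p = 0.0157). The call was lost without control 3 or without Sev 1 (edgeR adjusted p = 0.0672 and 0.0638). TAP1 lies at chr6:32845209-32853978 on the minus strand, and shares 456 exon bases with the opposite-strand PSMB8-AS1, whose counts came to 4.35% of those of TAP1. TAP2 was measured at 26.5, 28.0 and 26.6 CPM in the control libraries and 27.8, 29 and 31.4 CPM in the Sev libraries. These groups overlapped, and the means were 27.0 ± 0.84 and 29.4 ± 1.83 CPM (SD, n = 3). The log2 fold change of TAP2 was 0.12 (SE 0.093, 95% interval -0.090 to 0.33, edgeR adjusted p = 0.317), and it was just below 0 on library size or FPKM scaling (-0.023 to -0.017). TAP2 lies at chr6:32821833-32838780 on the minus strand and shares 2064 exon bases with a same-strand protein-coding gene model, which had 82 counts over the 6 libraries.

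TAPBP encodes tapasin, which links the pump to the empty class I molecule. It was measured at 153, 153 and 145 CPM in the control libraries and 139, 162 and 133 CPM in the Sev libraries, with the highest and the lowest value both after Sev. The means were 150 ± 4.56 and 145 ± 15.5 CPM (SD, n = 3), and the log2 fold change was -0.053 (SE 0.091, 95% interval -0.26 to 0.16, edgeR adjusted p = 0.664). TAPBP lies at chr6:33299694-33314387 on the minus strand.

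NLRC5, the class I transactivator, was measured at 23.6, 18.5 and 19.9 CPM in the control libraries and 20.0, 23.9 and 19.9 CPM in the Sev libraries. The groups covered nearly the same range. The means were 20.6 ± 2.62 and 21.3 ± 2.26 CPM (SD, n = 3), with a log2 fold change of 0.043 (SE 0.13, 95% interval -0.26 to 0.34, edgeR adjusted p = 0.817), below 0 on library size or FPKM scaling (-0.10 to -0.059). NLRC5 lies at chr16:56989485-57083531 on the plus strand. The RNA of the activator showed no detectable difference while 3 of the genes it is known to act on were lower.

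Levels were compared between genes in FPKM, which take length into account. In the control group, B2M was highest at 58.9 ± 2.18 FPKM, followed by HLA-E at 28.7 ± 2.17, TAPBP at 25.3 ± 0.979, HLA-C at 14.9 ± 6.19 and HLA-B at 13.4 ± 1.66 (SD, n = 3). TAP2 at 3.60 ± 0.0661, TAP1 at 3.0 ± 0.235, HLA-F at 1.73 ± 0.306 and NLRC5 at 1.41 ± 0.214 FPKM formed the low end. Neighbours whose control libraries overlapped were HLA-E with TAPBP, HLA-C with HLA-B, and HLA-F with NLRC5. In the Sev group, the order down to TAP1 was kept: B2M at 49.8 ± 1.67 FPKM, HLA-E at 29.2 ± 1.47, TAPBP at 22.0 ± 1.63, HLA-C at 13.6 ± 4.95, HLA-B at 9.16 ± 1.12, TAP2 at 3.55 ± 0.316 and TAP1 at 1.98 ± 0.149. HLA-F at 0.927 ± 0.123 FPKM was then below NLRC5 at 1.31 ± 0.102 FPKM, without overlap. HLA-C with HLA-B was the one pair of neighbours in the Sev order whose libraries overlapped.

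**Figure D3:**
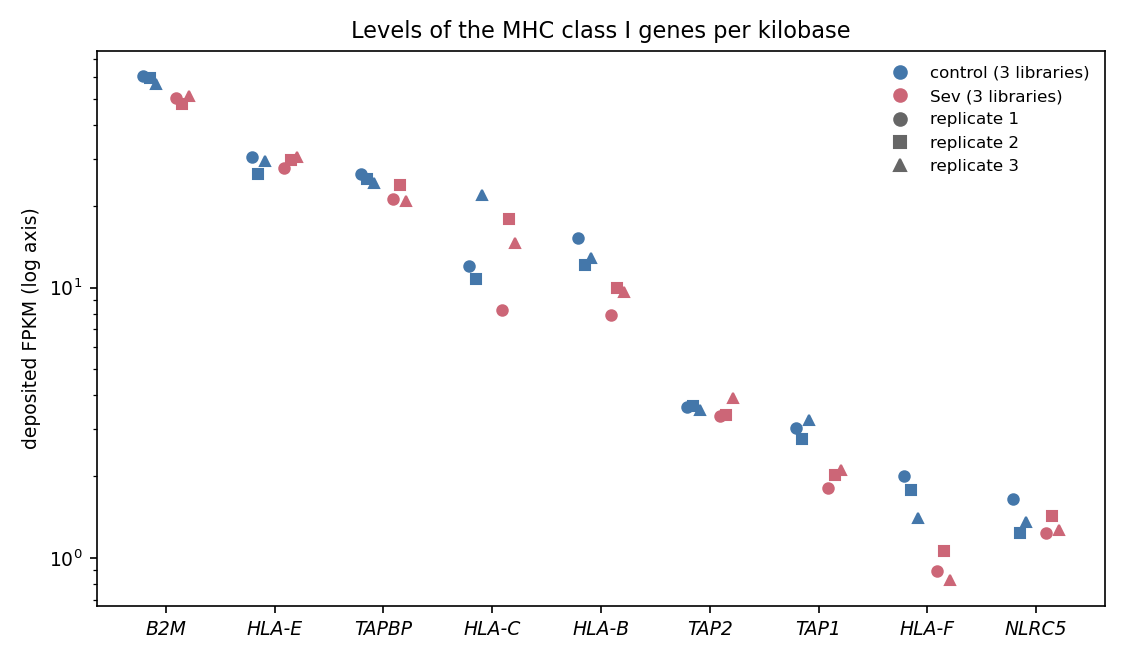
FPKM of the 9 class I genes on a log axis, per library and by group, in the order of the control means. B2M stands highest at 58.9 FPKM in the control group, and HLA-F and NLRC5 change places after Sev.

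Ratios between members within a library do not depend on how the libraries were scaled. For each of 7 ratios of FPKM, an exact two-sided permutation test of 3 against 3 cannot go below p = 0.1, so none could pass 0.05. The HLA-B to HLA-E ratio was 0.503, 0.461 and 0.439 in the control libraries and 0.285, 0.337 and 0.316 in the Sev libraries. All Sev ratios were lower (exact permutation p = 0.1, adjusted 0.14 over 7 ratios, n = 3 per group). The HLA-F to HLA-E ratio went from 0.0605 ± 0.0111 to 0.0318 ± 0.0045, also without overlap (exact permutation p = 0.1, n = 3). The TAP1 to TAP2 ratio went from 0.835 ± 0.0806 to 0.560 ± 0.0345 and was lower in all 3 Sev libraries (exact permutation p = 0.1, n = 3). Against B2M, HLA-E was higher in every Sev library (0.487 ± 0.0419 to 0.588 ± 0.0348) and TAP1 lower (0.0510 ± 0.00558 to 0.0399 ± 0.00327), each with an exact permutation p = 0.1 at n = 3. The HLA-B to B2M and HLA-C to HLA-B ratios overlapped between the groups (exact permutation p = 0.2 and 0.3, n = 3).

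**Figure D4:**
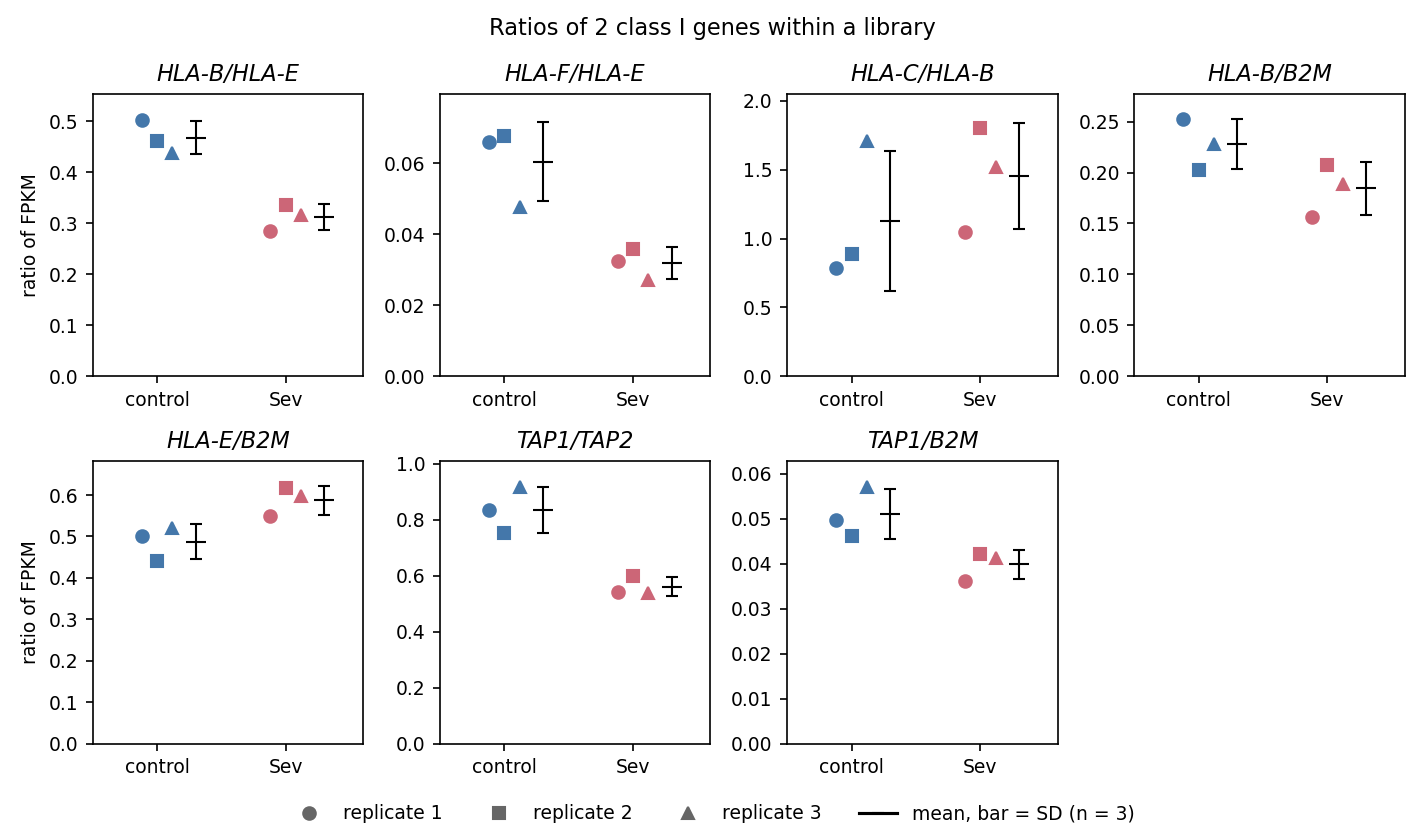
FPKM ratios between class I genes in each library, with the mean and SD of each group (n = 3). HLA-B/HLA-E, HLA-F/HLA-E, TAP1/TAP2 and TAP1/B2M are lower in all 3 Sev libraries, HLA-E/B2M is higher in all 3, and the other two ratios overlap.

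Other genes of the route were then read as 6 lists by role. Of 61 genes, 59 were tested, with 12 higher, 11 lower and 36 not called by edgeR, and a median log2 fold change of -0.077. With library size scaling only, the same lists gave 8 higher and 21 lower, and on log2(FPKM + 1) they gave 6 higher and 20 lower by limma. Of all features, 43.7% were called in the TMM fit, with 22.2% higher and 21.5% lower. The counts for each list below are to be read beside these shares.

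On the supply side, the constitutive subunit genes PSMB6 and PSMB7 and the assembly factor POMP rose, while the constitutive subunit gene PSMB5 (log2 fold change 0.33, edgeR adjusted p = 0.412) and the immunoproteasome genes did not pass the test. Of 10 proteasome-side genes, 3 were higher and 0 lower (1 lower at an unadjusted p under 0.05, and 0 by DESeq2), with a median of 0.12. The β subunit gene PSMB7 went from 77.7 ± 5.55 to 118 ± 7.22 CPM (log2 fold change 0.61, edgeR adjusted p = 0.000995). PSMB6 went from 63.6 ± 17.1 to 96.0 ± 2.91 CPM (0.59, adjusted p = 0.0348), and the assembly factor POMP from 49.7 ± 6.17 to 74.1 ± 2.75 CPM (0.58, adjusted p = 0.00274). Of the interferon-inducible subunits, PSMB8 and PSMB10 had log2 fold changes of -0.18 and 0.051 (adjusted p = 0.281 and 0.751). PSMB9, which lies beside TAP1 on the opposite strand and shares no exon bases with it, was under 2 CPM in every library (log2 fold change -0.95, adjusted p = 0.0844).

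In the endoplasmic reticulum, 1 of 9 loading partners was lower and 0 higher (2 lower and 0 higher both at an unadjusted p under 0.05 and by DESeq2), with a median of 0.031. The one called gene was UGGT1, the glucosyltransferase that returns poorly loaded class I molecules to the chaperone cycle, at 202 ± 4.43 CPM in the control group and 167 ± 5.91 CPM after Sev (log2 fold change -0.27, edgeR adjusted p = 0.0133). TAPBPL, a tapasin-like editor of class I peptides, was at 8.77, 4.57 and 7.75 CPM in the control libraries and 3.66, 5.59 and 2.63 CPM in the Sev libraries, with overlapping groups (log2 fold change -0.83, adjusted p = 0.0734). The chaperones CALR, CANX and PDIA3 and the trimming peptidases ERAP1 and ERAP2 were not called.

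Among 13 factors that act on class I promoters, 2 were higher and 3 lower, with a median of -0.30. IRF2, an interferon regulatory factor, fell from 13.8 ± 0.597 to 5.25 ± 0.0453 CPM (log2 fold change -1.40, edgeR adjusted p = 0.000107) and passed the threshold of the study. CREB1, a factor of X2 type sites, fell from 31.6 ± 3.96 to 16.8 ± 0.518 CPM (-0.91, adjusted p = 0.000542). X2 letters were matched above in the promoters of HLA-B, HLA-C and TAP2, where binding was not measured. EZH2, a histone methyltransferase known for class I silencing, fell from 82.8 ± 5.29 to 60.0 ± 1.90 CPM (-0.47, adjusted p = 0.0025). The NF-κB subunits NFKB1 (0.54, adjusted p = 0.00513) and RELA (0.44, adjusted p = 0.0361) rose. RFX5 and the class II activator CIITA, which was under 2 CPM, were not called (log2 fold change -0.36 and 0.85, adjusted p = 0.122 and 0.0874). No relation between these factors and the class I genes was tested.

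On the interferon side, 1 of 12 genes was higher and 3 lower, with a median of -0.15. Both chains of the type I interferon receptor fell: IFNAR1 from 55.8 ± 1.01 to 36.2 ± 9.86 CPM (log2 fold change -0.63, edgeR adjusted p = 0.0267) and IFNAR2 from 16.1 ± 4.99 to 6.20 ± 0.702 CPM (-1.37, adjusted p = 0.00231). STAT2, which carries the type I signal to the nucleus, fell from 72.9 ± 13.9 to 36.6 ± 5.73 CPM (-0.99, adjusted p = 0.0017). The kinase JAK1 rose (0.33, adjusted p = 0.00537). The chains of the interferon γ receptor, IFNGR1 and IFNGR2, were not called.

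Molecules built like class I heavy chains, or read by the same immune cells, moved both ways, with 3 higher, 4 lower and 3 not called among 10 tested of 12, and a median of -0.36. MICA (log2 fold change 0.49, edgeR adjusted p = 0.00389) and ULBP3 (0.84, adjusted p = 0.0011), ligands of the activating receptor NKG2D, rose, and ULBP2 (-0.53, adjusted p = 0.0158), another NKG2D ligand, fell. CD1D, the lipid-presenting molecule, had 0, 3 and 2 counts in the control libraries and 45, 40 and 101 counts in the Sev libraries. It was called higher from near the floor. FCGRT, the antibody-recycling receptor that also pairs with B2M, fell (-0.62, adjusted p = 0.0109), as did HFE (-0.43, adjusted p = 0.0387) and AZGP1 (-0.61, adjusted p = 0.045). HLA-G was not tested, with 0 counts in every control library and 5, 0 and 8 counts in the Sev libraries.

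Of 5 genes for class I turnover at the surface, 3 were higher and 0 lower (1 lower at an unadjusted p under 0.05, and 0 by DESeq2), with a median of 0.32. TMEM127 (log2 fold change 0.47, edgeR adjusted p = 0.00382) and WWP2 (0.32, adjusted p = 0.0174), which work with SUSD6 to send class I to lysosomes, rose, while SUSD6 was not called (-0.029). The ubiquitin ligase gene MARCHF4 had 3, 2 and 9 counts in the control libraries and 30, 33 and 53 in the Sev libraries, and was called higher.

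**Figure D5:**
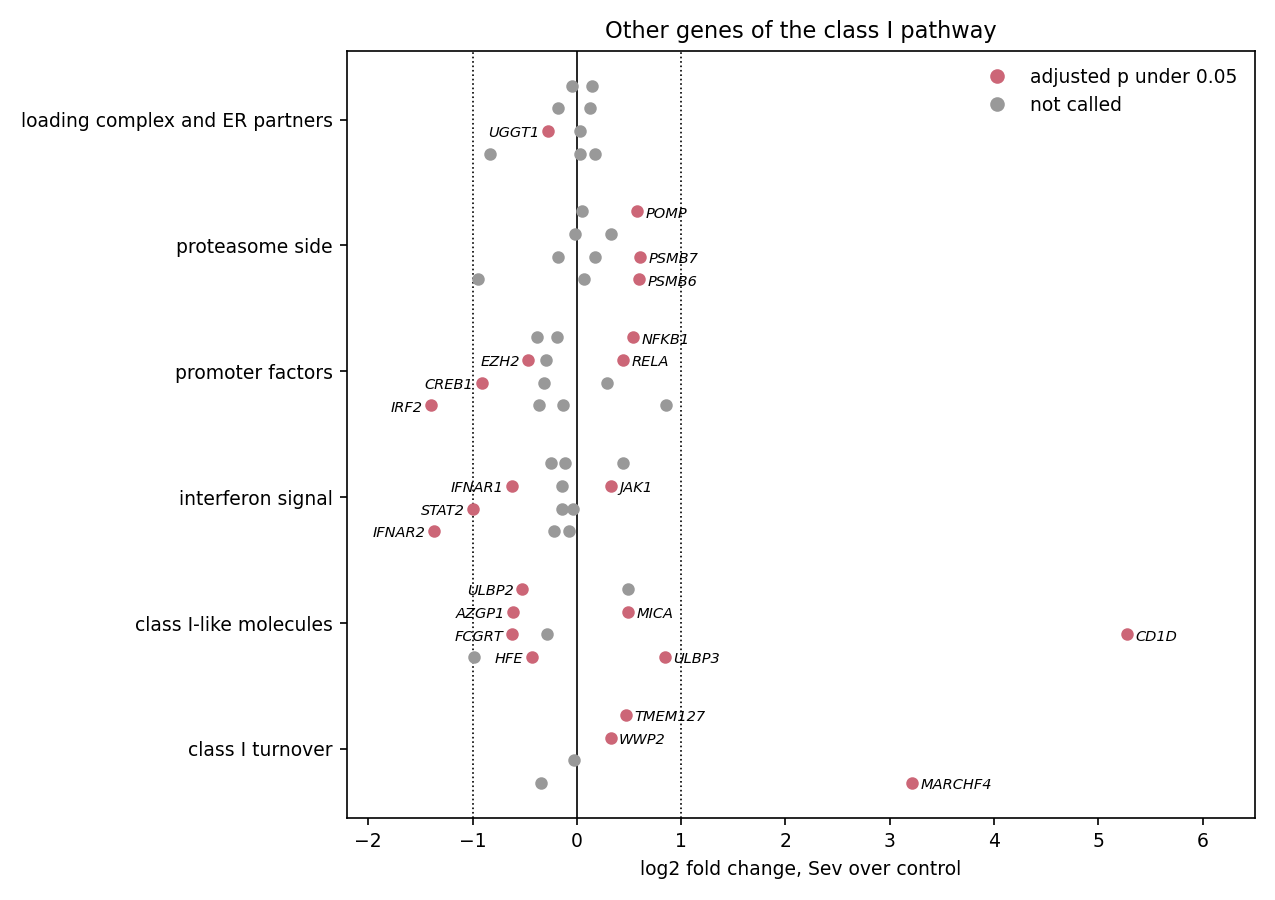
Log2 fold change of Sev over control for the tested genes of the 6 class I pathway lists, with called genes named and dotted lines at 1 and -1. The fitted values of CD1D and MARCHF4 start from near 0 counts and depend on the prior count. The turnover list has its median at 0.32 and the class I-like list at -0.36, beside a median of -0.0056 over all tested features.

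For the light chain, a lowered heavy chain and the activator, the genes with the nearest profile across the 6 libraries were looked up among 13404 expressed protein-coding genes. Likeness was the root mean square difference of centred log2 CPM, a description with no test. For B2M, the nearest were PYGL (0.0158), GPT2 (0.0221) and NDUFS1 (0.0227). For HLA-B they were JAKMIP2 (0.0324), VASH1 (0.0402) and IGSF1 (0.0495), and for NLRC5 they were FOXO1 (0.0334), JOSD2 (0.0400) and CIB2 (0.0401). None of these 9 genes is in the pathway lists.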

How the data were processed

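The 6 libraries were grouped by their labels as 3 control and 3 Sev. The authors deposited unnormalized counts for each gene, with a matching table of FPKM. The submitters' processing notes name bcl2fastq 2.19, featureCounts and hg18. The aligner, the annotation, the strand setting and the handling of reads with several matches were not given in the sources used here. Positions were joined by Ensembl identifier through GENCODE 29 on GRCh38, and promoters came from RefSeq (GRCh38.p14). Every member had 181 to 19674 counts per library, and precision was limited by the 3 libraries per group.

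The count test was edgeR 4.0.16 under R 4.3.3, with filterByExpr on the groups, TMM, robust glmQLFit and glmQLFTest, without covariates, and Benjamini-Hochberg adjustment over 27514 features. CPM values are TMM-normalized. The fit was tested on simulated data with known changes. Alternatives were DESeq2 1.42.0, library size scaling, stricter and no count filters, limma 3.58.1 on log2(FPKM + 1) or log2(FPKM + 0.1), leaving out each library, and a replicate block. Ratios were tested by exact permutation in Python 3.11.15. The labels do not say whether the libraries came from separate cultures, and the study's methods mention independent experiments for its quantitative data in general. If they did not, p-values measure the spread between these samples, which may be technical. Within groups, 49.0% to 66.5% of 15608 genes differed beyond counting noise, so no library was a copy of another.

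All 9 members are named, with pathway genes called by the test or paired in role with a member, and the 3 nearest profiles of B2M, HLA-B and NLRC5. The members and lists were chosen with earlier results of these data known.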

Additional observations from a re-analysis of the deposited data

How the results depend on the processing

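The members called lower numbered 3 and were 1 to 3 when a library was left out (1 without control 3 or without Sev 1), with none higher in any setting. On library size scaling and on FPKM they numbered 4, with B2M added. Pathway genes called lower numbered 11 and were 7 to 17 with a library left out (7 without Sev 1, 17 without Sev 2), 21 with library size only, and 20 and 21 on log2(FPKM + 1) and log2(FPKM + 0.1). Those called higher numbered 12, against 6 and 6 on these FPKM scales. Library size scaling moved the median of all features by -0.14, and the lower share of all calls from 49.2% to 61.5%. The log2 fold changes below 0 in place of above were, for library size, log2(FPKM + 1), log2(FPKM + 0.1) and FPKM without a filter in turn, -0.13, -0.12, -0.13 and -0.12 for HLA-C, -0.017, -0.018, -0.023 and -0.018 for TAP2, and -0.10, -0.059, -0.092 and -0.059 for NLRC5. With a library left out, HLA-C ran from -0.26 to 0.41, NLRC5 from -0.044 to 0.14, TAPBP from -0.14 to 0.0069 and the heavy chain sum from -0.11 to 0.088. The cause was not tested. Deviations of same-numbered libraries correlated at -0.0072, 0.0035 and 0.027, so the numbers were not taken as pairs. With a replicate block the members called lower numbered 2, HLA-B had an adjusted p of 0.0686, and pathway calls numbered 11 lower and 11 higher. Depth did not limit the members, and the spread among 3 libraries per group did, most of all for HLA-C.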

Other observations

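The tables also hold 12 class I pseudogenes, which lie among the heavy chain genes and were looked up after their values had been seen. Of these, 6 passed the count filter, with 4 lower and 0 higher by edgeR's quasi-likelihood test (0 higher also at an unadjusted p under 0.05 and by DESeq2), beside 21.5% lower and 22.2% higher among all tested features. HLA-J had 94, 55 and 66 counts in the control libraries and 10, 4 and 6 counts in the Sev libraries, a log2 fold change of -3.23 (edgeR adjusted p = 0.000479). HLA-L (-1.08, adjusted p = 0.00153), HLA-W (-1.72, adjusted p = 0.0196) and HLA-H (-0.41, adjusted p = 0.0432) were also lower, and HLA-K and HLA-T were not called. The median over the 6 was -1.09. Reads shared between heavy chain genes and their pseudogenes may be split between them in a way the sources used here do not state. In the reference transcripts, no 150-base stretch of HLA-B, HLA-C, HLA-E or HLA-F recurred in another gene, but the alleles of U251 were not used.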
